A study of Mus musculus with 10 samples.

Results

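The 10 genes described here are Dntt, Rag1, Rag2, Il7r, Ly6d, Notch1, Ikzf1, Tcf3, Bcl11a and Satb1. They belong to the early lymphoid programme and to V(D)J recombination, and were chosen by name with earlier results of these data known. They are 10 of the 55359 genes in the deposited table of FPKM, a level given as fragments per kilobase of gene, scaled to the fragments of the library. RNA of lineage-negative (Lin-) bone marrow cells was sequenced from 5 WT (Dhx9f/f) and 5 cKO (Dhx9f/f;MX1) mice, 1 library from each mouse. Mature cells had been removed with a lineage depletion kit, and the comparison asks how the progenitor transcriptome differs when the RNA helicase gene Dhx9 is a target for deletion. Mice of both groups carry the floxed Dhx9 allele. The MX1 mice also carry Cre under the Mx1 promoter, which responds to interferon and is switched on by injecting poly(I:C), a double-stranded RNA mimic that itself raises interferon. The methods give poly(I:C) injection for MX1-Cre mice and analysis a week after the first dose unless noted, and they do not state whether the WT mice of these libraries were injected. If they did not, an effect of that agent and an effect of the genotype cannot be told apart. Sex was randomized, and the age of the mice is not given. Depth, read from genes with a single annotated transcript, was 15037500 to 18709000 fragments in the WT libraries and 13839000 to 17191500 in libraries labelled cKO.

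Lymphoid progenitors assemble the genes of antibodies and T cell receptors by cutting and joining V, D and J segments. The RAG1 and RAG2 proteins make the cuts, the polymerase encoded by Dntt adds untemplated bases at the joints, and general end-joining enzymes seal them. The IL-7 receptor and NOTCH1 carry signals for the B and T lineages, the surface protein LY6D marks progenitors that turn towards the B lineage, and IKAROS (Ikzf1), E2A (Tcf3), BCL11A and SATB1 are nuclear factors needed for lymphoid development.

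The label check did not show a loss of Dhx9 in libraries labelled cKO. Dhx9 was at 68.96, 72.42, 72.18, 69.55 and 65.43 FPKM across WT libraries 1 to 5 and at 130.82, 148.80, 131.25, 156.49 and 131.98 FPKM in libraries labelled cKO 1 to 5. Every library labelled cKO was above every WT library, so the targeted gene was not lower at this level (exact permutation p = 0.00794, two-sided, which is the smallest possible with 5 libraries a group). Gene-level FPKM do not show which exons were read, so this check cannot show whether the floxed part of Dhx9 was lost. The libraries are therefore called by their labels throughout, and every direction given rests on those labels. The groups also differ in sex-linked RNA, since WT libraries 1 and 2 held Xist at 0.07 and 0.04 FPKM and WT libraries 3 to 5 at 99.19, 121.04 and 127.76 FPKM, against 0.03 to 0.09 FPKM in all 5 libraries labelled cKO. For this reason, each of the 10 genes is also given with only the 2 WT libraries low in Xist against the 5 libraries labelled cKO, a comparison chosen after seeing the data.

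Of the 10 genes, 7 were lower in libraries labelled cKO (Dntt, Rag1, Rag2, Il7r, Ly6d, Notch1 and Satb1), 0 were higher and 3 were not called (Ikzf1, Tcf3 and Bcl11a). Of the 7, 4 stayed called with the Xist-low libraries alone (Dntt, Rag2, Notch1 and Satb1). That fit called 2261 of 18588 genes tested lower and 536 higher, the background for every count given with the Xist-low libraries alone. A gene was called where limma, fitted to log2(FPKM + 0.1), gave an adjusted p below 0.05 and the groups differed at least 2-fold. It was fitted over 18742 genes averaging 0.1 FPKM or more, and all 10 genes passed that filter. By the same rule 16.8% of all genes tested were called lower and 4.6% higher. As the 10 genes and all lists were chosen with earlier results known, shares over all genes are a background, not a test. At an unadjusted p under 0.05, 8 of the 10 were lower and 2 higher, where 32.3% and 20% of all genes tested were. All 5 libraries labelled cKO were below all 5 WT libraries for 6 of the 10, and above them for 1, where 21.6% and 10.6% of all genes tested were so separated. The median log2 fold change was -2.26 over the 10 genes and -0.11 over all genes tested, on a scale that understates the change of genes at low levels. With quantile normalization the median of all genes tested became 0.10, and the share of called genes that were higher went from 21.5% to 41.3%. In RNA from a mixed population, fewer cells of a type and less RNA per cell cannot be told apart.

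**Figure D1:**
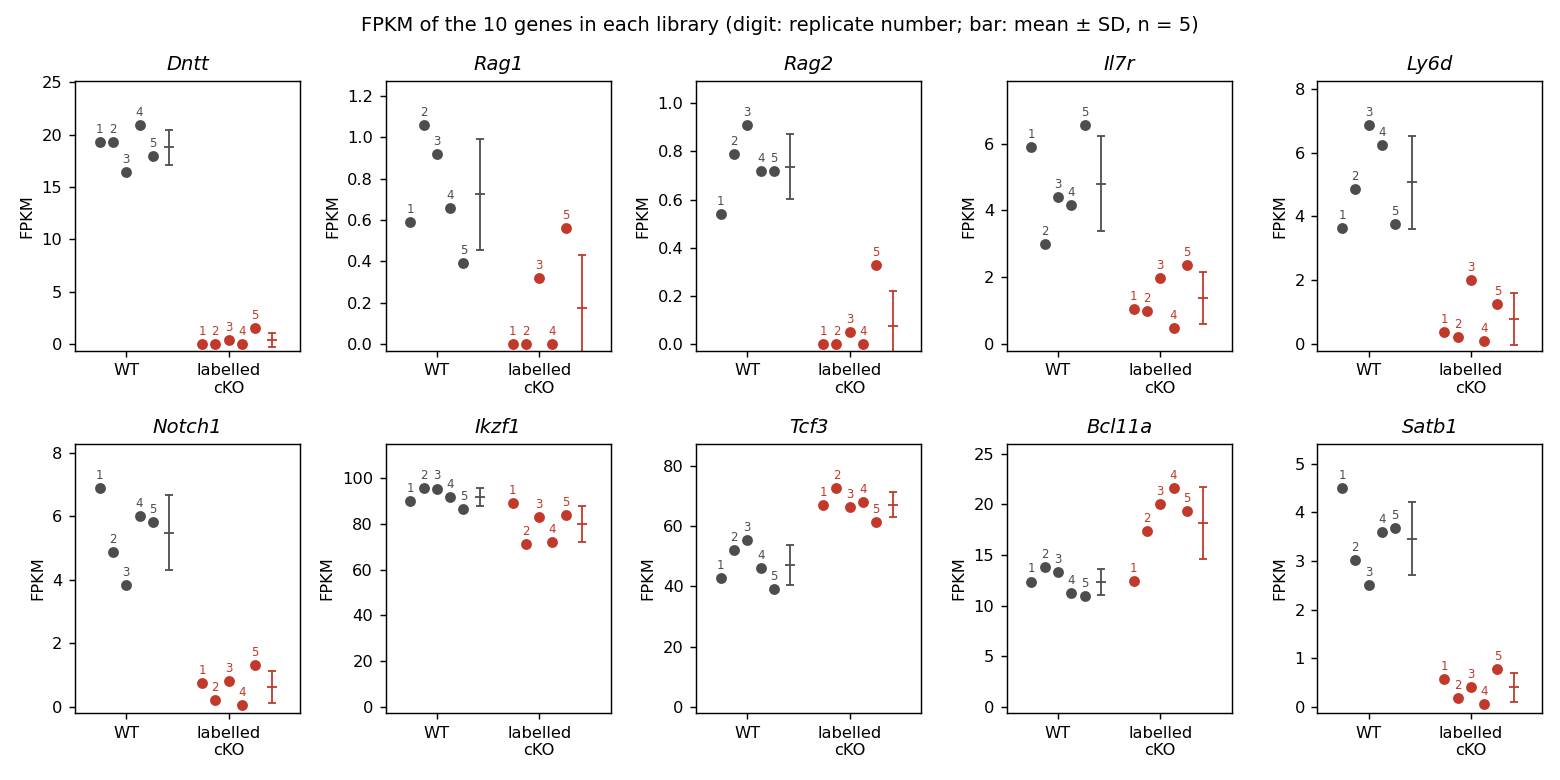
FPKM of each of the 10 genes in the 5 WT libraries (grey) and the 5 libraries labelled cKO (red), with the replicate number at each point and the mean ± SD beside it. Dntt lies between 16.42 and 20.92 FPKM across WT libraries and between 0 and 1.56 FPKM in those labelled cKO, whereas Ikzf1 is at 71.24 FPKM or more in every library.

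Dntt (ENSMUSG00000025014, chr19:41017714-41047964 of GRCm39, plus strand) encodes terminal deoxynucleotidyl transferase, the polymerase that diversifies the joints. It was at 19.28, 19.31, 16.42, 20.92 and 17.98 FPKM across WT libraries 1 to 5 and at 0, 0, 0.41, 0 and 1.56 FPKM in libraries labelled cKO 1 to 5. The WT libraries lay close together, 3 libraries labelled cKO had no fragment at all, and the highest of that group, replicate 5, was still far below the lowest WT library. The log2 fold change was -6.28 with a standard error of 0.724 (95% confidence interval -7.87 to -4.68, adjusted p = 0.000118 by limma), lower in 5 of 5 libraries. Across each library left out in turn it ran from -6.97 without cKO replicate 5 to -5.96, and it was -6.32 with the Xist-low libraries alone (adjusted p = 0.0115 by limma). The floor of 3 fragments corresponds to 0.0946, 0.0761 and 0.0877 FPKM of Dntt in the 3 libraries at 0, for counting error only, so a level below these values was not detectable.

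The recombinase genes Rag1 and Rag2 sit side by side on chromosome 2 and are transcribed towards each other. Rag1 (ENSMUSG00000061311, chr2:101468603-101479877, minus strand) and Rag2 (ENSMUSG00000032864, chr2:101455063-101462874, plus strand) have 5728 bp between their ends and 24814 bp between their starts. Rag1, whose protein carries the catalytic site, was at 0.59, 1.06, 0.92, 0.66 and 0.39 FPKM across WT libraries 1 to 5 and at 0, 0, 0.32, 0 and 0.56 FPKM in libraries labelled cKO 1 to 5. The groups overlap, because cKO replicate 5 was above WT replicate 5, while replicates 1, 2 and 4 labelled cKO held no fragment. As Rag1 has 1 annotated transcript, these levels are 65, 117, 95, 82 and 39 fragments in WT and 0, 0, 34, 0 and 59 in libraries labelled cKO. On the log2 scale it changed by -2.02 (standard error 0.580, adjusted p = 0.0151 by limma). The call was lost with a term for sex (adjusted p = 0.0609 by limma) and with the Xist-low libraries alone (0.107). The 2 WT libraries low in Xist were at 0.59 and 1.06 FPKM, both above every library labelled cKO. It was also lost at a pseudocount of 1, where the log2 fold change of Rag1 was -0.56.

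Rag2, the cofactor that binds RAG1 and a histone mark of active chromatin, was at 0.54, 0.79, 0.91, 0.72 and 0.72 FPKM across WT libraries 1 to 5 and at 0, 0, 0.05, 0 and 0.33 FPKM in libraries labelled cKO 1 to 5. The same 3 libraries were at 0 as for Rag1 and Dntt, and the groups did not overlap. The log2 fold change was -2.51 with a standard error of 0.413 (adjusted p = 0.000689 by limma), -2.38 with the Xist-low libraries alone (adjusted p = 0.0345 by limma) and -0.70, under the fold limit, at a pseudocount of 1. In fragments, which are approximate for this gene, WT libraries held 31 to 48 and the libraries labelled cKO 0, 0, 3, 0 and 18. The floor of 3 fragments in the libraries at 0 was 0.0325, 0.0262 and 0.0302 FPKM for Rag1. Both genes overlap exons of Iftap, by 111 bp on the strand of Rag1 and by 208 bp on the strand opposite to Rag2, and Iftap averaged 3.04 FPKM over the 10 libraries. Whether counting used strand is not stated. In the 3 libraries where both genes were at 0, no fragment of the shared stretches was counted to them. In the other libraries, fragments in those stretches cannot be told apart.

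The promoter windows of these 3 recombination genes and of the receptor genes Il7r and Notch1 are shown because each of the 5 genes was called lower and has a single window, where Satb1, also called lower, has 5. Windows of 250 bases before to 50 after the start come from RefSeq (GRCm38.p6) and were placed in GRCm39 by a single exact match, on the plus strand for Dntt (chr19:41017464-41017763) and Rag2 (chr2:101454807-101455106) and on the minus strand for Rag1 (chr2:101479828-101480127), Il7r (chr15:9529913-9530212) and Notch1 (chr2:26393785-26394084). Of the 10 genes, 9 had a window, 14 windows in all, and Ly6d had none. Capitals mark matches, on either strand, of letters known from the motifs of transcription factor families: CANNTG for the E-box, CAGGTG for the form of it that E proteins prefer, TGGGAA for IKAROS, GAGGAA for ETS factors and TGTGGT for RUNX. Each match of the E protein form is also a match of the E-box.
Dntt: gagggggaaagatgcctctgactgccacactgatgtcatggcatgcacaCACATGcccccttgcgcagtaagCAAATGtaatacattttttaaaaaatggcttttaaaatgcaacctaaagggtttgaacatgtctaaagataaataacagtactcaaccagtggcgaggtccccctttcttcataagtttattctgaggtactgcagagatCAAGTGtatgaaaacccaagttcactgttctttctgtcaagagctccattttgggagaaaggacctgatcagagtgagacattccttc
Rag1: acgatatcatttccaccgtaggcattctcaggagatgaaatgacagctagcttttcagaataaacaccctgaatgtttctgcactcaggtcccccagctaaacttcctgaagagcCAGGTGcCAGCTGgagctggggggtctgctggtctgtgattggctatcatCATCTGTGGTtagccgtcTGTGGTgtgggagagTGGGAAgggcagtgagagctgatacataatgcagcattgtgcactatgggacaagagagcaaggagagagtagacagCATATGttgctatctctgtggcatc
Rag2: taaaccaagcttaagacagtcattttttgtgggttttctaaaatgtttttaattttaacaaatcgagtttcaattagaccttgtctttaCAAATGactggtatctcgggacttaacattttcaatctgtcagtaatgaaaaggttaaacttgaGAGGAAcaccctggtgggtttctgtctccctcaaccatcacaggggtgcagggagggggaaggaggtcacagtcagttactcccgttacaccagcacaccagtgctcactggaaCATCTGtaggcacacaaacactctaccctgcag
Il7r: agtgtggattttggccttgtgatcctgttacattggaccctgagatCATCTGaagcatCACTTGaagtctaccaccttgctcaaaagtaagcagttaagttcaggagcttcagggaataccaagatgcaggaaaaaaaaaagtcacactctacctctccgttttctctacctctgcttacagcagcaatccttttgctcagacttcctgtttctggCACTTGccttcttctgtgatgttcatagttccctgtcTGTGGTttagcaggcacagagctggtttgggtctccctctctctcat
Notch1: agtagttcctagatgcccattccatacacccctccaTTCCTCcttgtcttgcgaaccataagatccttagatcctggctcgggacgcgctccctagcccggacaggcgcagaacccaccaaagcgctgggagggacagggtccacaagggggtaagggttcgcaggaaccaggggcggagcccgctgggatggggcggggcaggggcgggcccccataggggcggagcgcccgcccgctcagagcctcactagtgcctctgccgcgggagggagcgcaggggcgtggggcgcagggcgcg

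The Dntt window held 3 E-boxes, 201, 178 and 38 bases before the start, and none of the other motifs. The Rag1 window held 4 E-boxes, of which the one 135 bases before the start reads CAGGTG, with TGGGAA at 52 bases and TGTGGT at 81 and 67 bases before the start. The E-box at 85 bases and the TGTGGT at 81 bases share 2 bases. Rag2 had 2 E-boxes, at 161 bases before and 18 after the start, and GAGGAA at 97 bases before it. Il7r had 3 E-boxes, at 204, 192 and 34 bases before the start, and TGTGGT at 4 after it, whereas Notch1 had 0 E-boxes and GAGGAA on the opposite strand at 214. The windows of Satb1, not printed, held 0 to 5 E-boxes each, of which 2 windows had 1 of the CAGGTG form, with TGGGAA in 2 windows and GAGGAA in 3. Among the genes that were not called, Tcf3 had 1 E-box, Bcl11a 1 E-box and 1 TGGGAA, and the 2 windows of Ikzf1 none of these letters. Of all 32851 windows of this length, 72.3% held the E-box letters, 20.2% the CAGGTG form, 25.6% the IKAROS letters, 28.3% the ETS letters and 16.8% the RUNX letters. The windows of Dntt, Rag2 and Il7r were 42.3%, 43.0% and 45.7% G and C, against 50% for Rag1 and 68.3% for Notch1. A match is a description, not a site, and a window without a match says only that these letters are not in it.

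The other genes of the recombination machinery were measured in the same libraries. Of 16 genes for V(D)J recombination and end joining, Rag1, Rag2 and Dntt were called lower, where 16.8% of all genes tested were. The other 13 were not called in either direction by limma, with a median log2 fold change of -0.18. At a pseudocount of 1 and at a mean of at least 1 FPKM, 1 gene of the list was called lower. Over the whole list, 7 were lower and 2 higher at an unadjusted p under 0.05, where 32.3% and 20% of all genes tested were. Hmgb2, the most abundant of the list, encodes a DNA-bending protein that assists the recombinase and was at 260.68, 237.48, 265.11, 260.86 and 253.46 FPKM across WT libraries 1 to 5 and at 294.46, 188.56, 194.87, 201.53 and 204.18 FPKM in libraries labelled cKO 1 to 5. Replicate 1 labelled cKO was the highest of all 10 and the other 4 of its group the lowest, so the groups overlapped (adjusted p = 0.0845 by limma). Hmgb1 was at 69.93 to 85.53 FPKM in WT and 64.27 to 79.51 in libraries labelled cKO. Of the Ku pair that holds broken ends, Xrcc6 was at 21.85 to 30.12 and 19.23 to 23.93 FPKM, and Xrcc5 at 12.86 to 21.57 and 25.09 to 28.82 FPKM. The groups were separated for Xrcc5 but not for Xrcc6, Hmgb1 or Hmgb2. Xrcc5 had a log2 fold change of 0.73 with a standard error of 0.127 (adjusted p = 0.000908 by limma), short of the fold limit. In the other direction Poll, at 6.32 to 8.03 and 2.36 to 6.14 FPKM (-0.83), and Prkdc, at 7.54 to 8.76 and 6.57 to 7.45 FPKM (-0.23), were also separated and not called.

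Il7r (ENSMUSG00000003882, chr15:9505874-9530262, minus strand) encodes the chain of the IL-7 receptor that binds the cytokine. Its level was 5.90, 3, 4.41, 4.16 and 6.56 FPKM across WT libraries 1 to 5 and 1.05, 1, 1.98, 0.47 and 2.36 FPKM in libraries labelled cKO 1 to 5. All libraries held the transcript, and those labelled cKO were all lower, with replicate 5 of that group nearest to the WT range. The means were 4.81 ± 1.42 and 1.37 ± 0.775 FPKM (SD, n = 5 each), and the change was -1.87 on the log2 scale (standard error 0.378, adjusted p = 0.00227 by limma). With the Xist-low libraries alone the log2 fold change was -1.73 and no longer passed the test (adjusted p = 0.0656 by limma).

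The partner chain of the receptor, the common gamma chain Il2rg, was at 12.30, 8.61, 8.56, 9.96 and 8.77 FPKM in WT and at 7.60, 13.31, 13.29, 9.60 and 10.29 FPKM in libraries labelled cKO, with wide overlap (log2 fold change 0.15, adjusted p = 0.499 by limma). Of 10 tested genes of IL-7 receptor signalling, 4 were called lower and 2 higher (16.8% and 4.6% of all genes tested), and the median was -0.08. At an unadjusted p under 0.05, 4 were lower and 3 higher (32.3% and 20% of all). With the Xist-low libraries alone 2 were lower and 1 higher. Besides Il7r, the lower genes were Jak3, the kinase bound to the gamma chain, Crlf2, which pairs with Il7r in the receptor for TSLP, and the survival gene Bcl2. Jak3 was at 9.28, 7.75, 6.35, 7.42 and 7.62 FPKM in WT and at 3.70, 1.66, 2.46, 1.05 and 3.36 FPKM in libraries labelled cKO (log2 fold change -1.73), and Crlf2 at 12.85 to 15.21 and 4.39 to 7.49 FPKM (-1.18). Both were separated between the groups. The higher genes were the feedback inhibitors Cish and Socs1. Cish was at 0.46 to 0.91 FPKM in WT and at 3.86, 18.48, 11.46, 12.42 and 7.70 FPKM in libraries labelled cKO (log2 fold change 3.71, adjusted p = 6.85e-05 by limma), while Socs1 overlapped between groups (1.36, adjusted p = 0.0371), and the higher genes fell from 2 to 1 in 7 of the 10 fits with a library left out. The list's most abundant genes were Jak1, at 39.35 to 46.78 and 41.46 to 60.81 FPKM, Stat5b, at 31.53 to 35.81 and 26.59 to 38.30, and Stat5a, at 16.72 to 17.71 and 15.81 to 19.85. None of these 3 was called, with log2 fold changes of 0.32, -0.19 and 0.03. The ligand Il7 was at 0.11 FPKM or less in every library and was not tested.

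Notch1 (ENSMUSG00000026923, chr2:26347915-26406675, minus strand), the receptor that directs progenitors to the T lineage, was at 6.91, 4.87, 3.85, 6.01 and 5.82 FPKM across WT libraries 1 to 5 and at 0.75, 0.23, 0.81, 0.06 and 1.31 FPKM in libraries labelled cKO 1 to 5. The groups did not overlap, and replicates 2 and 4 labelled cKO were the lowest. The log2 fold change was -3.28 with a standard error of 0.519 (adjusted p = 0.000553 by limma), and -3.38 with the Xist-low libraries alone (adjusted p = 0.0241 by limma). The lncRNA gene 0610009E02Rik, on the opposite strand, shares 1996 bp of exons with Notch1 and was at 0.47 FPKM or less, and fragments in that stretch cannot be told apart without the strand. The paralog Notch2 was at 24.37, 19.87, 17.63, 21.51 and 22.09 FPKM in WT and at 17.56, 11.93, 14.35, 10.52 and 13.85 FPKM in libraries labelled cKO, a log2 fold change of -0.64 that was not called.

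Of 31 tested genes of the Notch pathway, 4 were called lower and 2 higher (16.8% and 4.6% of all genes tested), and the median log2 fold change was -0.32. At an unadjusted p under 0.05, 15 were lower and 5 higher (32.3% and 20% of all). Quantile normalization turned the counts to 2 lower and 4 higher, a pseudocount of 1 left 2 and 0, and 1 was higher without WT replicate 1, WT replicate 2 or cKO replicate 2. The lower genes besides Notch1 were the coactivator Maml2 (-1.68), Dtx4 (-1.17) and the fringe glycosyltransferase Mfng (-1.07). The higher genes, Notch3 and Hey1, were near the lower limit of the filter. Notch3 was at 0.04 to 0.24 FPKM in WT and at 0.16, 1, 0.90, 0.94 and 0.57 FPKM in libraries labelled cKO, an overlap set by replicate 1 labelled cKO. Its log2 fold change was 1.94 with all libraries and 1.47, not called, with the Xist-low libraries alone (adjusted p = 0.125 by limma). Rbpj, the DNA-binding partner of cleaved Notch, was at 7.28 to 8.70 FPKM in WT and 6.39 to 8.39 in libraries labelled cKO (log2 fold change -0.03, and 0.16 after quantile normalization), and its coactivator Maml1 at 6.45 to 8.73 and 4.68 to 7.14 FPKM. The most abundant genes of the list included 2 that take part in cutting the receptor, neither of them called. Adam10 was at 64.10 to 71.98 and 65.00 to 89.14 FPKM and Ncstn at 25.26 to 29.19 and 19.97 to 24.74 FPKM.

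Ly6d (ENSMUSG00000034634, chr15:74633902-74635597, minus strand), the surface marker of B-lineage-biased lymphoid progenitors, was at 3.63, 4.86, 6.87, 6.25 and 3.75 FPKM across WT libraries 1 to 5 and at 0.39, 0.23, 2.01, 0.09 and 1.27 FPKM in libraries labelled cKO 1 to 5. Replicates 3 and 5 labelled cKO were the highest of their group, and all of that group were below WT. The gene is short, so the libraries labelled cKO held about 5, 3, 28, 1 and 18 fragments, and the value of replicate 4 lies under the floor of 3 fragments. The log2 fold change was -3.02 with a standard error of 0.588 (adjusted p = 0.00181 by limma), or -2.80 and not called with the Xist-low libraries alone (adjusted p = 0.0592 by limma).

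Of 8 tested genes of the Ly6 family, 5 were called lower and 0 higher by limma (16.8% and 4.6% of all genes tested). The median of the 8 was -1.57. An unadjusted p under 0.05 gave 7 lower and 0 higher (32.3% and 20% of all). The 5 became 2 at a pseudocount of 1, at a mean of at least 1 FPKM and with the Xist-low libraries alone, and 3 with quantile normalization or a term for sex. Some members of the family are near copies, so fragments may be split among those and their values are uncertain. Which members this touches was not tested. Ly6c2 was at 173.96 to 299.31 FPKM in WT and at 17.77, 4.73, 39.36, 3.20 and 64.10 FPKM in libraries labelled cKO (log2 fold change -4.01), whereas Ly6e was at 195.40 to 250.92 and 119.99 to 147.79 FPKM (-0.72, not called). Lynx1 was at 0.30 to 0.39 and 0 to 0.08 FPKM (-1.80). Of 12 surface proteins of lymphoid progenitors, which include Ly6d and Il7r, 8 were called lower and 0 higher (median -1.76). The shares of all genes tested were 16.8% and 4.6%. An unadjusted p under 0.05 gave 10 lower and 0 higher (32.3% and 20% of all). With the Xist-low libraries alone 5 were called lower. Cd27 was at 9.14 to 14.42 and 0.12 to 1.35 FPKM (-4.26) and the cytokine receptor Flt3 at 14.68 to 25.29 and 0.37 to 5.86 FPKM (-3.97). The chemokine receptor Cxcr4, the most abundant of the list, was at 97.74 to 194.05 and 34.75 to 59.58 FPKM (-1.66). Cd48 was at 61.09 to 88.15 FPKM in WT and at 29.41, 104.01, 98.99, 106.63 and 72.80 FPKM in libraries labelled cKO, where only replicate 1 was below the WT range, and it was not called.

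Satb1 (ENSMUSG00000023927, chr17:52043114-52140622, minus strand), a chromatin organizer that primes stem cells for the lymphoid lineage, was at 4.51, 3.02, 2.50, 3.60 and 3.68 FPKM across WT libraries 1 to 5 and at 0.58, 0.18, 0.40, 0.05 and 0.78 FPKM in libraries labelled cKO 1 to 5. The highest library labelled cKO was well below the lowest WT library. The log2 fold change was -3.07 with a standard error of 0.437 (adjusted p = 0.000316 by limma), and -3.19 with the Xist-low libraries alone (adjusted p = 0.0177 by limma). The unconfirmed gene Gm6934, on the opposite strand, shares 776 bp with Satb1 and was at 0.47 FPKM or less. The 3 other nuclear factors of the 10 genes were not called.

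Ikzf1 (ENSMUSG00000018654, chr11:11634980-11723186, plus strand), which encodes IKAROS, was at 90.05, 95.95, 95.54, 91.65 and 86.57 FPKM across WT libraries 1 to 5 and at 89.30, 71.24, 83.27, 72.34 and 83.89 FPKM in libraries labelled cKO 1 to 5. Replicate 1 labelled cKO was within the WT range and the other 4 were below it. The log2 fold change was -0.21 with a standard error of 0.0720 (adjusted p = 0.0378 by limma), far from the fold limit, and adjusted p ran from 0.00828 to 0.278 over the alternatives. Tcf3 (ENSMUSG00000020167, chr10:80244046-80269594, minus strand), which encodes the E2A proteins, was at 42.83, 52.09, 55.46, 46.18 and 39.00 FPKM in WT and at 67.12, 72.80, 66.36, 67.97 and 61.43 FPKM in libraries labelled cKO. It was the only gene of the 10 with every library labelled cKO above every WT library, at a log2 fold change of 0.52 with a standard error of 0.0949 (adjusted p = 0.00125 by limma). Bcl11a (ENSMUSG00000000861, chr11:24027941-24124123, plus strand), a zinc-finger repressor needed for B cells, was at 12.38, 13.85, 13.28, 11.21 and 10.95 FPKM in WT and at 12.41, 17.37, 20.05, 21.66 and 19.35 FPKM in libraries labelled cKO. Replicate 1 labelled cKO lay in the WT range and the other 4 above it, with a log2 fold change of 0.54 with a standard error of 0.142 (adjusted p = 0.0101 by limma). With the Xist-low libraries alone, the log2 fold changes of Ikzf1, Tcf3 and Bcl11a were -0.22, 0.50 and 0.44.

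**Figure D2:**
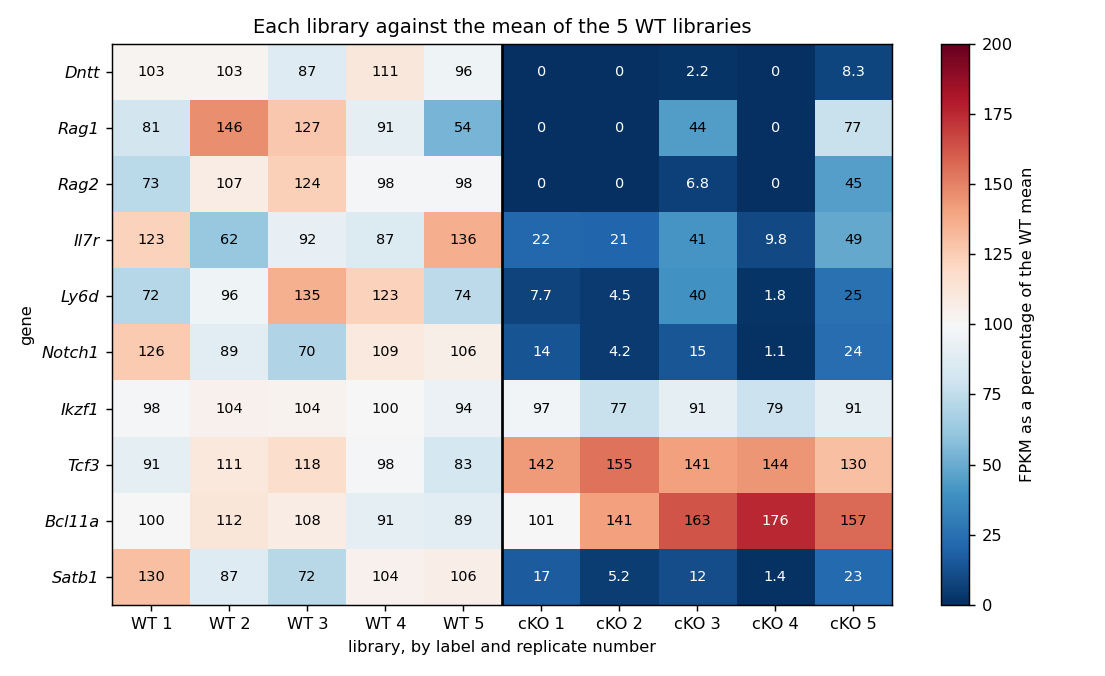
FPKM of each of the 10 genes (rows) in each library (columns) as a percentage of the mean of the 5 WT libraries, printed in each cell and coloured from 0 (blue) to 200 (red). In the libraries labelled cKO, Dntt is at 0 to 8.31% of the WT mean, Tcf3 at 130% to 155% and Bcl11a at 101% to 176%.

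Of 10 tested genes for E proteins, the Id proteins that oppose them and their partners, limma called 0 lower and 0 higher, with 4 lower and 4 higher at an unadjusted p under 0.05 (32.3% and 20% of all genes tested) and a median log2 fold change of -0.22. Tcf12, the E protein that dimerizes with E2A in lymphoid cells, was at 7.90 to 8.94 FPKM in WT and 10.68 to 12.42 FPKM in libraries labelled cKO, separated upwards like Tcf3 (log2 fold change 0.47, adjusted p = 0.000403 by limma), whereas Tcf4 was at 2.88 to 3.55 and 1.28 to 2.52 FPKM (-0.85, adjusted p = 0.00288). Id1 was at 7.25 to 11.28 and 2.49 to 8.54 FPKM, Id2 at 6.28 to 11.40 and 0.82 to 7.92, and Id3 at 0.07 to 0.54 and 0 to 0.29, and the groups of all 3 overlapped. The most abundant genes of the list, Lmo2, Ldb1 and Tal1, form a complex with E proteins in erythroid cells. Lmo2 was at 131.62 to 149.55 and 132.03 to 163.10 FPKM, Ldb1 at 57.96 to 67.22 and 66.03 to 88.27, and Tal1 at 41.71 to 61.69 and 66.52 to 74.94. Lyl1, which also dimerizes with E proteins, was at 48.20 to 60.57 FPKM in WT and 19.09 to 49.04 FPKM in libraries labelled cKO.

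Among the 5 IKAROS family genes, 1 was called lower and 1 higher (16.8% and 4.6% of all genes tested), with 3 and 1 at an unadjusted p under 0.05 (32.3% and 20% of all). Ikzf2 (HELIOS) was at 2.29 to 5.70 FPKM in WT and 0.97 to 1.67 in libraries labelled cKO (log2 fold change -1.42), and Ikzf4 (EOS) at 0.02 to 0.08 FPKM in WT and 0.20, 1.18, 0.77, 0.86 and 1.15 FPKM in libraries labelled cKO (2.59). Both were separated between groups, but the lower call was lost with quantile normalization, and the higher call at a pseudocount of 1 and at a mean of at least 1 FPKM. Ikzf3 (AIOLOS) was at 0.81 to 1.51 and 0.24 to 0.99 FPKM, and Ikzf5 (PEGASUS) at 2.23 to 2.84 and 2.29 to 3.26 FPKM, neither of them called. Bcl11b, the paralog of Bcl11a, was at 0.26 FPKM or less in every library.

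Of the other transcription factors of lymphoid development, 12 of 18 tested were called lower and 0 higher by limma (16.8% and 4.6% of all). The median log2 fold change of the 18 was -1.82. At an unadjusted p under 0.05, 17 were lower and 0 higher, against 32.3% and 20% of all genes tested. Irf8 had the largest change (-5.24), followed by Nfil3, at 5.68 to 9.24 FPKM in WT and 0.40 to 1.67 in libraries labelled cKO (-2.79), and Erg, at 9.91 to 14.18 and 0.95 to 3.81 FPKM (-2.68). Spi1, which encodes PU.1, was at 30.34 to 45.96 and 9.46 to 14.54 FPKM (-1.73). Myb, the most abundant of the list, was at 59.61 to 80.05 and 31.68 to 46.66 FPKM, separated but under the fold limit (-0.88). Ebf1 and Lef1 were below the filter and not tested. Of these factors, Irf8, Spi1 and Erg also act outside the lymphoid lineage.

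**Figure D3:**
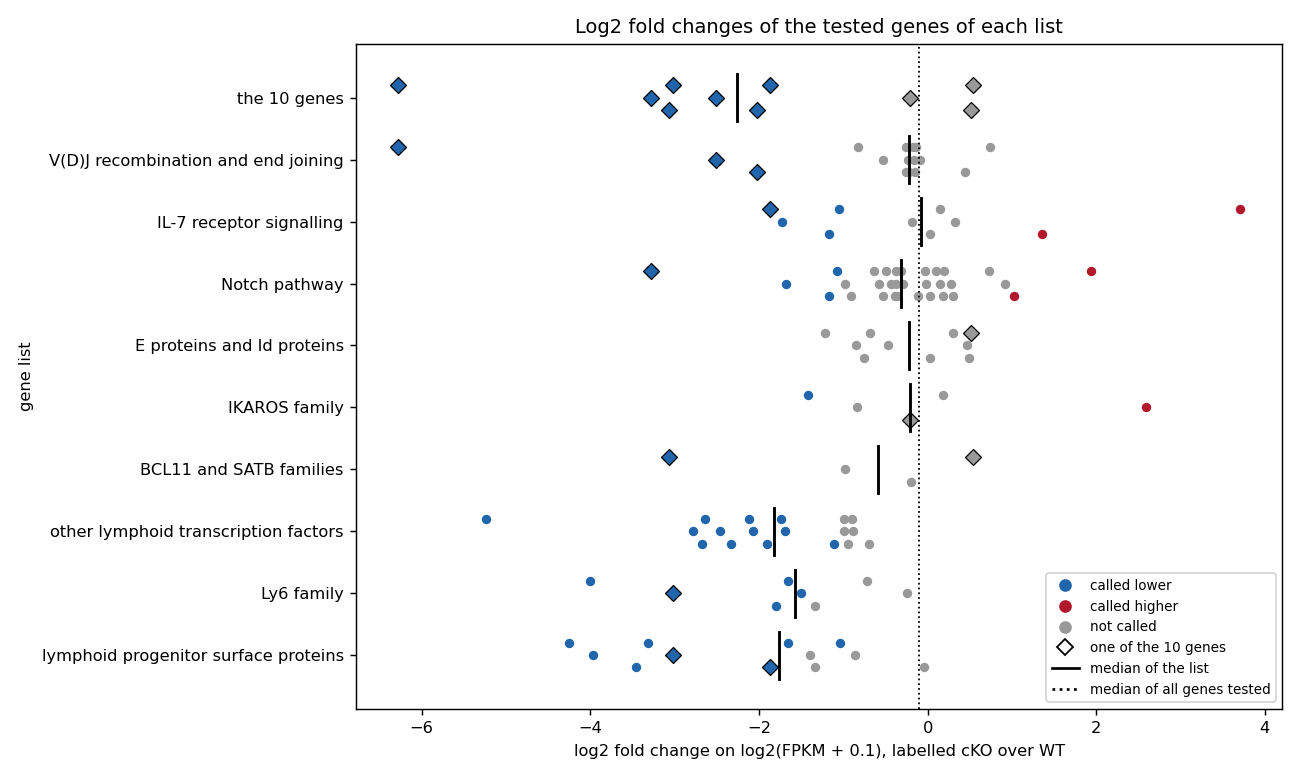
Log2 fold change on log2(FPKM + 0.1) of each tested gene of the lists, with called genes in blue (lower) and red (higher), the 10 genes as diamonds, the median of each list as a bar and that of all genes tested as a dotted line. The median is -2.26 for the 10 genes, -0.23 for V(D)J recombination and end joining and -1.82 for other lymphoid transcription factors.

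Ratios within a library compare genes of 1 machinery or family and, apart from the pseudocount of 0.1, do not depend on how libraries were scaled. Near 0.1 FPKM, as for Rag1 and Rag2, the pseudocount weighs on them. The log2 ratio of Dntt to Rag1 was 4.81, 4.06, 4.02, 4.79 and 5.21 in WT libraries 1 to 5 and 0, 0, 0.28, 0 and 1.33 in libraries labelled cKO 1 to 5. The groups did not overlap, and the 3 values of 0 are set by the pseudocount of 0.1 because both genes were at 0. The difference was -4.26 (standard error 0.346, exact permutation p = 0.00794, adjusted p = 0.0159 over 6 ratios). As both genes were at 0 in 3 libraries, it does not show that Dntt changed more than Rag1. In replicates 3 and 5, where both genes had fragments, the ratios of 0.28 and 1.33 were below all WT values. The log2 ratio of Rag1 to Rag2 overlapped between groups, with a difference of 0.49 (standard error 0.347, exact permutation p = 0.206, adjusted p = 0.248). Here too 3 values of 0 in libraries labelled cKO are set by the pseudocount. Rag2 in replicate 3 was only at the floor, so the test says little of this pair.

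Il7r to Il2rg was at log2 ratios of -1.05, -1.49, -0.94, -1.24 and -0.41 in WT and -2.74, -3.61, -2.69, -4.09 and -2.08 in libraries labelled cKO, a difference of -2.01 (standard error 0.400, exact permutation p = 0.00794, adjusted p = 0.0159). Notch1 to Notch2 was at -1.80, -2.01, -2.17, -1.82 and -1.91 in WT and at -4.38, -5.19, -3.99, -6.05 and -3.31 in libraries labelled cKO, a difference of -2.64 (standard error 0.482, exact permutation p = 0.00794, adjusted p = 0.0159). For both pairs the groups were separated, and the WT values lay in a narrower band than those of the libraries labelled cKO. Ikzf1 to Ikzf5 differed by -0.39 (standard error 0.135, exact permutation p = 0.0238, adjusted p = 0.0357) with overlapping groups, and this call was lost without any 1 of the 5 WT libraries or without cKO replicate 2, with adjusted p up to 0.0833. Tcf3 to Tcf12 did not differ beyond the spread of the libraries, at 0.05 (standard error 0.0793, exact permutation p = 0.524, adjusted p = 0.524). With the Xist-low libraries alone, 2 against 5, the differences were -4.12, -1.77, -2.68 and -0.39 for Dntt to Rag1, Il7r to Il2rg, Notch1 to Notch2 and Ikzf1 to Ikzf5, with adjusted p of 0.143, 0.190, 0.143 and 0.286 by exact permutation over 21 splits. At this size p cannot fall below 1 in 21, so no ratio passes after adjustment unless all 6 are at that limit.

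**Figure D4:**
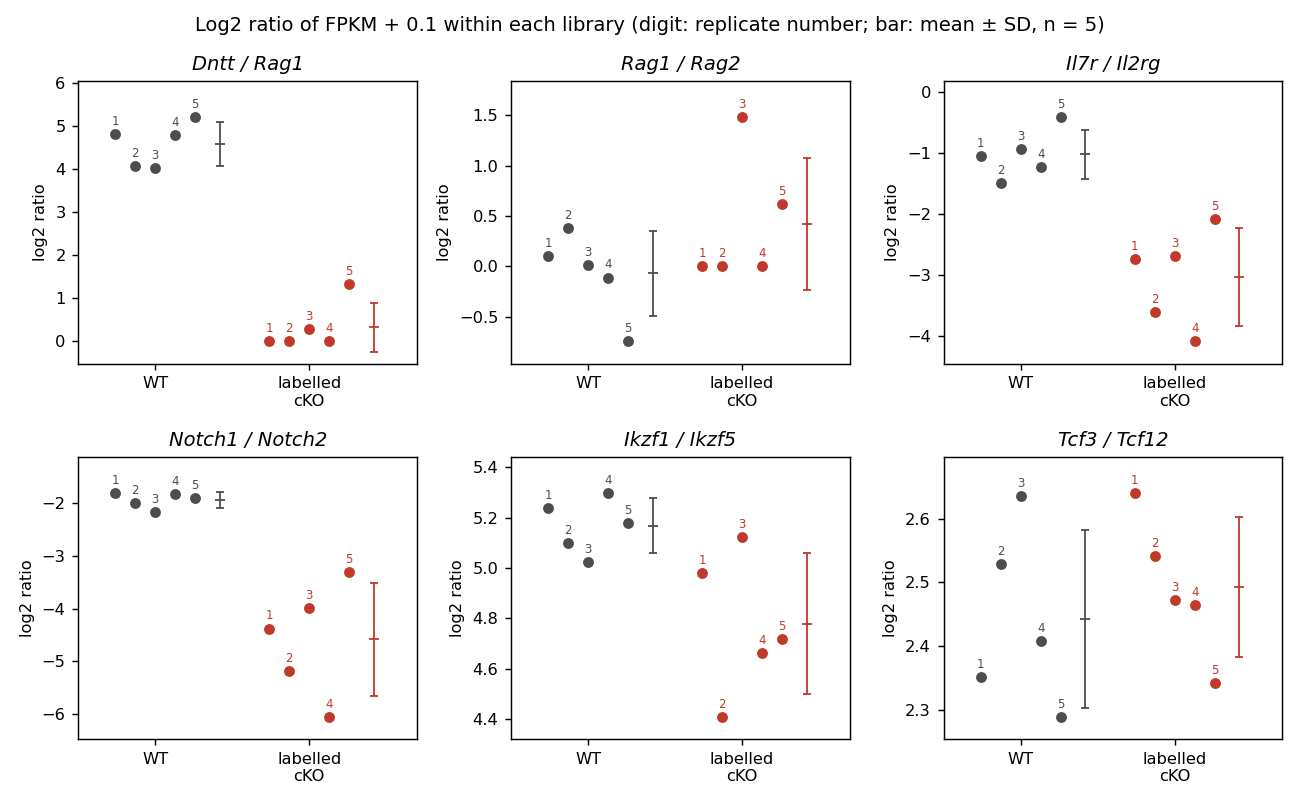
Log2 ratio of FPKM + 0.1 of the 6 gene pairs within each library, with the replicate number at each point and mean ± SD (n = 5) beside it. The groups are separated for Dntt to Rag1, Il7r to Il2rg and Notch1 to Notch2 and overlap for the other pairs.

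The order of levels among the 10 genes differed between the groups. By mean FPKM the WT order was Ikzf1, Tcf3, Dntt, Bcl11a, Notch1, Ly6d, Il7r, Satb1, Rag2 and Rag1. The neighbours from Notch1 to Satb1 overlapped in range with the next, and so did Rag2 and Rag1. In the libraries labelled cKO the order was Ikzf1, Tcf3, Bcl11a, Il7r, Ly6d, Notch1, Satb1, Dntt, Rag1 and Rag2, and the neighbours from Il7r to Rag2 lay within each other's spread. Dntt had moved from rank 3, at 18.8 ± 1.68 FPKM, to rank 8, at 0.394 ± 0.676 FPKM (SD, n = 5 each).

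The 7 lower genes also differed in level among the libraries labelled cKO, and whether they varied together was not tested. Their median level was 7.69%, 4.19%, 14.7%, 1.09% and 25% of the WT mean in replicates 1 to 5 of that group, and their summed level 2.77, 1.64, 5.98, 0.67 and 8.17 FPKM, against 35.88 to 42.32 FPKM in WT. By both measures replicate 4 was lowest and replicate 5 highest. Single genes departed from this order, as Ly6d was higher in replicate 3 than in 5 and Satb1 higher in replicate 1 than in 3. In replicates 1, 2 and 4, 3 of the 7 genes were at 0, but none in replicates 3 and 5. Rag1 was nearest to its WT level, at 44.2% and 77.3% of the WT mean in replicates 3 and 5. There Dntt was at 2.18% and 8.31% and Rag2 at 6.79% and 44.8%. The value of Rag2 in replicate 3 was at the floor of 3 fragments (0.0546 FPKM). Il7r in those replicates was at 41.2% and 49.1%, Ly6d at 39.6% and 25%, Notch1 at 14.7% and 23.9%, and Satb1 at 11.6% and 22.5%.

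Markers of B cells followed a like order among the libraries labelled cKO. Of 11 markers 9 were tested, with 5 called lower and 0 higher by limma (16.8% and 4.6% of all genes tested). An unadjusted p under 0.05 gave 6 lower and 0 higher (32.3% and 20% of all). The 5 became 1 at a pseudocount of 1 or a mean of at least 1 FPKM, and 3 with the Xist-low libraries alone. Their summed level was 13.78, 18.74, 13.28, 15.88 and 16.13 FPKM in WT and 2.68, 1.67, 9.10, 0.97 and 7.91 FPKM in libraries labelled cKO. Replicates 3 and 5 were again the highest of that group. Cd79b was the most abundant, at 6.78 to 11.75 FPKM in WT and at 1.62, 0.45, 3.22, 0.47 and 3.91 FPKM in libraries labelled cKO. The surrogate light chain gene Igll1 was at 0 in replicates 1, 2 and 4 labelled cKO and at 0.26 and 0.15 FPKM in replicates 3 and 5. For T cell markers 11 of 14 were tested and 3 called lower and 0 higher (also 3 and 0 at an unadjusted p under 0.05, where 32.3% of all genes tested were lower), or 1 lower at a pseudocount of 1 or a mean of at least 1 FPKM and 1 higher with quantile normalization. Their summed level was 4.98, 4.74, 5.81, 6.02 and 6.34 FPKM in WT and 2.19, 1.51, 6.79, 1.06 and 5.71 FPKM in libraries labelled cKO, with Lck the most abundant. Replicates 3 and 5 labelled cKO were at the level of the WT libraries or above it. The pre-T receptor gene Ptcra was at 0 in 9 of 10 libraries, and Cd3e was at 0.60 FPKM or less in every library. The part of B and T cells in the result was not tested.

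Among 10 natural killer and innate lymphoid markers, 7 were lower and 0 higher by limma (16.8% and 4.6% of all genes tested). An unadjusted p under 0.05 gave 8 lower and 1 higher (32.3% and 20% of all). The 10 summed to 12.73, 9, 12.20, 11.91 and 10.63 FPKM in WT and 4.81, 3.25, 5.36, 1.94 and 4.06 FPKM in libraries labelled cKO. Only 2 were lower at a pseudocount of 1, at a mean of at least 1 FPKM and with the Xist-low libraries alone, and 4 with a term for sex, while quantile normalization gave 1 higher. Gzma was their most abundant gene, and Ncr1, which defines natural killer cells, was at 0 in replicates 2 and 4 labelled cKO. Of 10 plasmacytoid dendritic cell markers 8 were tested, and 5 were lower and 0 higher (6 and 0 at an unadjusted p under 0.05), or 3 lower at a pseudocount of 1, at a mean of at least 1 FPKM and with the Xist-low libraries alone. Their sum, 78.03, 71.39, 76.60, 78.21 and 74.01 FPKM in WT and 63.25, 42.19, 79.90, 39.99 and 44.15 FPKM in libraries labelled cKO, was mostly Bst2, and Siglech, which defines the type, was at 0 in replicates 1, 2 and 4 labelled cKO. All 10 monocyte and dendritic cell markers were called lower. They summed to 1380.77, 828.12, 778.78, 1138.93 and 1384.15 FPKM in WT and to 57.22, 17.42, 139.20, 6.43 and 223.66 FPKM in libraries labelled cKO. The libraries labelled cKO had the same order as by the summed level of the 7 lower genes. The most abundant marker was Lyz2. The part of these cells in the result was not tested.

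Among 12 neutrophil markers, 4 were lower and 0 higher, where 16.8% and 4.6% of all genes tested were. An unadjusted p under 0.05 gave 5 lower and 0 higher (32.3% and 20% of all). The 12 summed to 3322.56, 2730.79, 2754.05, 3380.25 and 3712.63 FPKM in WT and 2603.49, 180.95, 860.97, 147.18 and 1120.83 FPKM in libraries labelled cKO. Mpo was the most abundant. The 4 lower genes were Mpo, Elane, Prtn3 and Ctsg, and the count was 2 with the Xist-low libraries alone, whereas Ngp, Ltf and Camp had log2 fold changes of 1.43, 1.39 and 0.98, which became 0.49, 0.67 and 0.29 without cKO replicate 1 and 2.24, 2.13 and 1.74 without cKO replicate 4, and were not called. In replicate 1 labelled cKO S100a9 was at 894.75, S100a8 at 442.90 and Ngp at 317.58 FPKM, above their WT ranges of 48.33 to 93.11, 40.49 to 113.81 and 4.59 to 19.69 FPKM, and Mpo was at 277.33 FPKM. Erythroid markers went the other way, with 0 of 11 lower and 5 higher (0 and 10 at an unadjusted p under 0.05), 11 of 12 being in the table. Their sum was 793.50, 724.95, 1395.70, 693.74 and 574.78 FPKM in WT and 2638.12, 2262.61, 2153.45, 2172.73 and 1711.21 FPKM in libraries labelled cKO, and the most abundant was Hba-a1. All 8 megakaryocyte markers were lower, at summed levels of 302.09, 1368.78, 951.43, 808.55 and 905.46 FPKM in WT and 204.58, 93.59, 125.74, 114.53 and 181.22 FPKM in libraries labelled cKO, with Ppbp the most abundant. Stem and progenitor cell markers, 7 of 10 lower and 0 higher (9 and 0 at an unadjusted p under 0.05), summed to 199.44, 168.18, 151.63, 193.87 and 205.98 FPKM in WT and 70.09, 126.79, 139.47, 129.97 and 119.46 FPKM in libraries labelled cKO, with Cd48 the most abundant. Of these 10 genes 4 were called lower at a pseudocount of 1. Without Cd48, a sum added after seeing the data, the list was at 111.29, 92.20, 90.54, 113.27 and 123.17 FPKM in WT and 40.68, 22.78, 40.48, 23.34 and 46.66 FPKM in libraries labelled cKO. The part of the erythroid and myeloid shares in the levels of the 10 genes was not tested. The stem cell list shares Kit, Cd34, Ly6a, Flt3 and Cd48 with the list of lymphoid progenitor surface proteins.

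**Figure D5:**
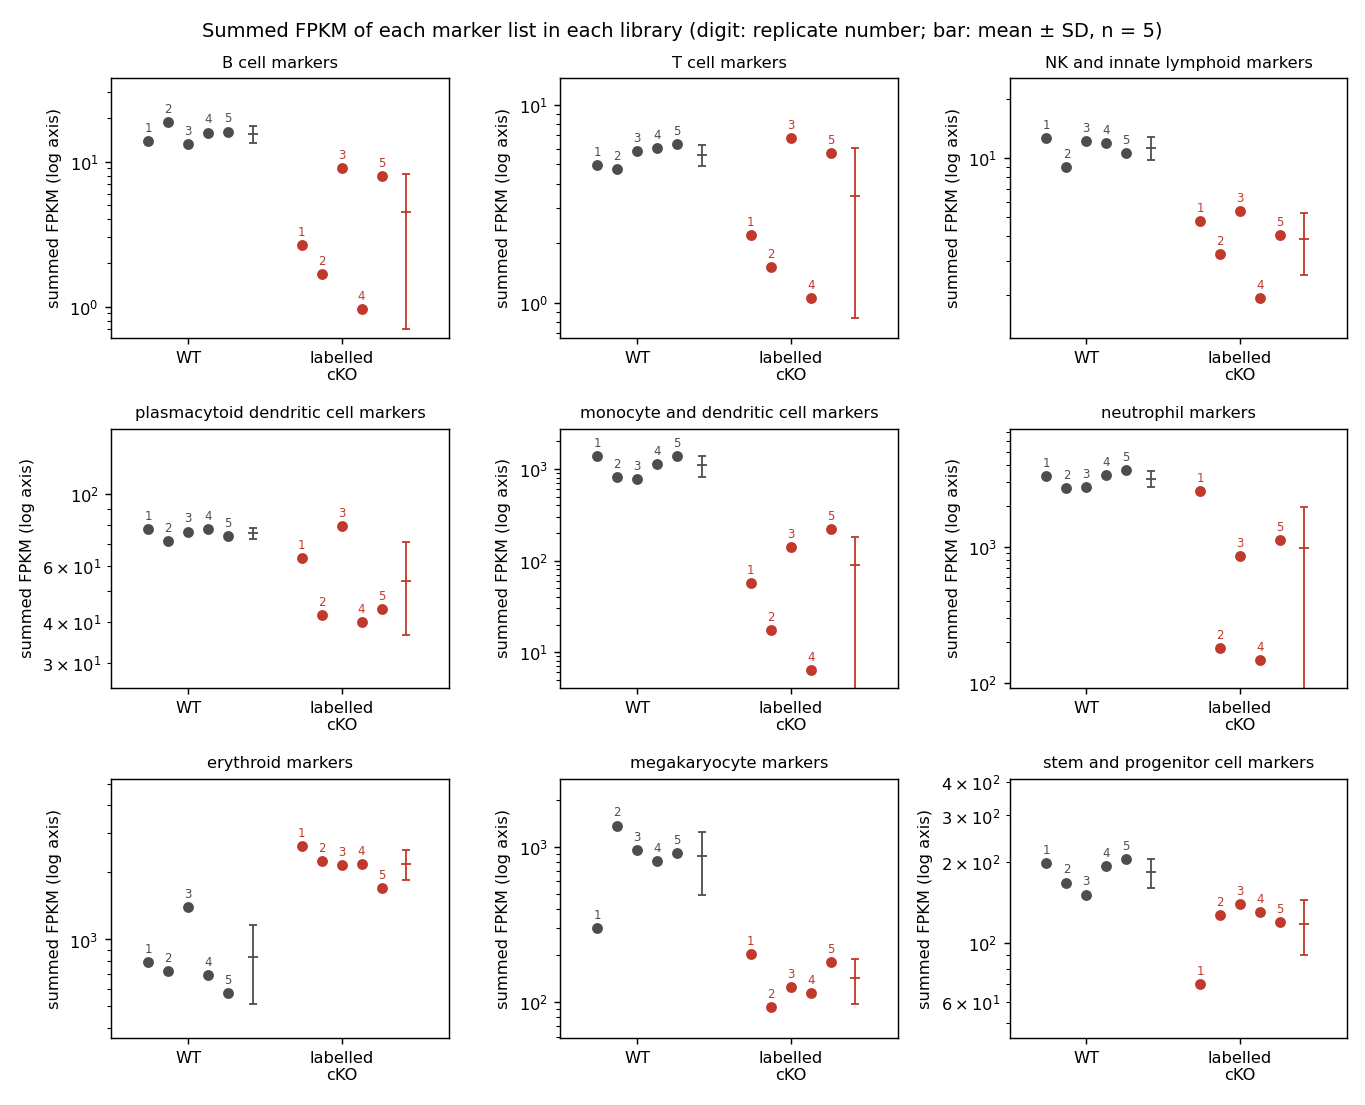
Summed FPKM of each list of cell type markers in each library on a log axis, with the replicate number at each point and mean ± SD (n = 5) beside it, the lower bar leaving the axis where the SD nears or passes the mean. Monocyte and dendritic cell markers sum to 778.78 to 1384.15 FPKM in WT and 6.43 to 223.66 FPKM in libraries labelled cKO, and erythroid markers to 574.78 to 1395.70 and 1711.21 to 2638.12 FPKM.

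Genes with the nearest profile over the 10 libraries were found by the root mean square difference of log2(FPKM + 0.1), centred on each gene's mean, among genes averaging 1 FPKM or more. For Dntt these were the immunoglobulin joining segment Ighj1 (0.709), Fn1 (0.766) and Irf8 (0.778). Ighj1 was at 64.56, 30.72, 29.29, 51.43 and 31.36 FPKM in WT and at 0, 0, 1.18, 0 and 7.11 FPKM in libraries labelled cKO. For Rag1 they were Axl (0.486), the kappa constant gene Igkc (0.509) and H2-DMb2 (0.520). Igkc was at 98.96, 129.11, 94.11, 65.60 and 120.85 FPKM in WT and at 24.31, 16.40, 42.98, 11.33 and 86.19 FPKM in libraries labelled cKO. Il7r had Mc5r (0.268), Snx18 (0.276) and Itpr3 (0.284) nearest to it, and Ikzf1 had Ttk (0.0330), Sart3 (0.0512) and Ccdc97 (0.0533). Ttk was at 12.68 to 14.31 FPKM in WT and 10.61 to 12.62 FPKM in libraries labelled cKO and, like Ikzf1, was not called.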

How the data were processed

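The authors trimmed paired-end reads (cutadapt 1.9.1), aligned them to GRCm39 by HISAT2 2.0.1, name HTSeq 0.6.1 and deposited FPKM per gene, rounded to 2 decimals. The annotation, the gene lengths and the use of strand in counting are not stated. The authors tested with DESeq2, which needs counts, so limma 3.58.1 in R 4.3.3, with a trended eBayes step, was fitted to log2(FPKM + 0.1), and its two-sided p values were adjusted over 18742 genes by Benjamini and Hochberg. Depth was computed from single-transcript genes, whose values of up to 20 fragments came out whole, within 0.2, in 96.6% to 97.2% of cases. Fragment numbers of genes with several transcripts are approximate. No pair of libraries of a group was alike within sampling noise (lowest chi-square per degree of freedom 3.81). Ratios were tested by exact permutation over 252 splits in Python 3.11.15 with numpy 2.4.6 and pandas 2.3.3.

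The 10 genes and all lists were chosen with earlier results of these data known. Named genes were the 10, Dhx9, Xist, the genes of the 6 ratios, genes that act directly with one of the 10, the 3 most abundant and the 3 most changed called genes of each pathway list, the most abundant gene of each marker list and the 3 nearest profiles. Markers at 0 and genes completing a count of 5 or fewer were named after their values were seen, and some genes that fit these rules are not reported here. As alternatives were run pseudocounts of 0.01 and 1, filters at 0 and at a mean of 1 FPKM, median-ratio scaling, quantile normalization, no trend, a replicate block, adjusted p alone, a term for sex, and each library left out. Opalin overlaps Dntt but is at 0 in every library, and 4930538E20Rik, on the opposite strand of Bcl11a, shares 353 bp with it at 2.32 FPKM on average.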

Additional observations from a re-analysis of the deposited data

Results flagged for a closer look

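A library stood far from the other 4 of its group in 14 of 210 groups of 5 examined. Chance flags about 1 in 20 groups. Sums and ratios share genes with the single values, so the flags are not independent. Of the 14, 6 concern cKO replicate 5, 6 cKO replicate 1, 1 WT replicate 3 and 1 WT replicate 1, and no cause was tested.

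In cKO replicate 5, Dntt was at 1.56 FPKM (0 to 0.41 in the other 4 libraries labelled cKO), Rag2 at 0.33 FPKM (0 to 0.05), Ighj1 at 7.11 FPKM (0 to 1.18), Fn1 at 10.95 FPKM (0.13 to 2.97) and Flt3 at 5.86 FPKM (0.37 to 1.79). Its log2 ratio of Dntt to Rag1 was 1.33 (0 to 0.28). In cKO replicate 1, Hmgb2 was at 294.46 FPKM (188.56 to 204.18), Stat5b at 38.30 FPKM (26.59 to 29.12) and the Y-linked Eif2s3y at 38.74 FPKM (23.78 to 27.15). In the same library the summed level of V(D)J recombination and end joining genes was 457.79 FPKM (341.43 to 366.93), a sum that includes Hmgb2. That of IL-7 receptor signalling was 125.46 FPKM (140.46 to 143.64). Stem and progenitor cell markers summed to 70.09 FPKM (119.46 to 139.47) there, with Cd48 at 29.41 FPKM (72.80 to 106.63) and the list without Cd48 at 40.68 FPKM (22.78 to 46.66). In WT replicate 3, erythroid markers summed to 1395.70 FPKM (574.78 to 793.50). In WT replicate 1, Ldb1 was at 67.22 FPKM (57.96 to 60.54).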

How the results depend on the processing

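Over 21 alternatives, the log2 fold changes of the 10 genes kept their direction, and 199 of 208 values kept their side of the call. Of 756 counts over lists, many of them 0 in both fits, 687 stayed within 1.5 times the main count. The changes ran from -8.33 to -3.93 for Dntt, -3.94 to -0.56 for Rag1, -4.67 to -0.70 for Rag2, -2.10 to -1.32 for Il7r, -3.47 to -1.83 for Ly6d, -3.67 to -2.03 for Notch1 and -3.54 to -1.68 for Satb1. Of 10 genes, 5 were called lower at a pseudocount of 1, 5 at a mean of at least 1 FPKM, where Rag1 and Rag2 were not tested, and 6 with a term for sex.

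Among all genes, 1486 were called lower and 356 higher at a pseudocount of 1, and 1827 and 462 at a mean of at least 1 FPKM, where fewer genes were tested. Quantile normalization gave 1581 higher and 2245 lower, and the cause was not tested. Adjusted p alone gave 5300 lower and 3138 higher, and 2 of the 10 genes higher (Tcf3 and Bcl11a). With the Xist-low libraries alone, chosen after seeing the data and with fewer samples, 2261 were lower, 536 higher and 4 of the 10 genes lower. The ratio differences there were -4.12 (Dntt to Rag1), -1.77 (Il7r to Il2rg), -2.68 (Notch1 to Notch2) and -0.39 (Ikzf1 to Ikzf5), with adjusted p of 0.143, 0.190, 0.143 and 0.286 by exact permutation. With each library left out in turn, 2892 to 3268 genes were lower, 762 to 948 higher and 7 of the 10 genes lower each time. The ratio of Ikzf1 to Ikzf5 then ran from -0.48 to -0.30.

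Whether the replicate numbers pair the samples is not stated. Same-numbered libraries had correlations of 0.185, 0.089, -0.077, 0.002 and 0.193 over 12353 genes. Of 5 WT libraries, 3 correlated best with their own number, so these values do not settle whether samples are paired. With the replicate block, 3107 genes were lower and 857 higher, and 7 of the 10 genes lower. Ratio differences are unchanged by it, and 5 pairs allow no exact p under 0.0625. Levels under 3 fragments are below what the depth can show.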
